A study of Homo sapiens with 8 samples.

Results

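The BCL2 family sets whether the outer membrane of the mitochondrion stays closed or opens, the step that commits a cell to intrinsic apoptosis. Guardian proteins (BCL2, BCL2L1, MCL1) hold the effectors BAX and BAK1 in check, and BH3-only proteins (BCL2L11, PMAIP1, BBC3, BID, BMF) bind the guardians or activate the effectors when a cell is damaged or starved of survival signals. MCL1 and PMAIP1 form a known pair: PMAIP1 (NOXA) binds MCL1 with high preference and marks it for breakdown. The 10 genes were taken by symbol from the tables of read counts, 10 of 36779 genes listed in either table, and all 10 stood in both tables, which share 31268 genes.

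Total RNA was sequenced from DU145 and PC3, human prostate carcinoma lines that were established from metastases. As background, DU145 is known to make no BAX protein because of frameshifts in the gene. Cells of each line were transfected with an expression plasmid for a circular RNA (circRNA), circ0003553 or circ0004592, or with a negative control plasmid. The experiment has an arm for each circRNA, named after RCAN3 for circ0003553 and after STK3 for circ0004592, and each arm has its own control in each line. Each line therefore holds 2 control libraries and 1 library per circRNA, 8 libraries in all. The time after transfection is not given in the sources used here, and no label says that the control libraries of a line came from separate cultures, so p-values measure the spread between these libraries, which may be technical.

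The libraries held 33444940 to 49926342 counts. Gene counts of RCAN3 and STK3 do not separate circular from linear RNA. RCAN3 stood at 36.6 CPM (read counts scaled to library size with TMM factors) with circ0003553 against 20.6 CPM in the control of its arm in DU145, and at 43.8 against 34.1 CPM in PC3. STK3 stood at 33.8 CPM with circ0004592 against 25.8 CPM in DU145, and at 19.3 against 9.22 CPM in PC3. The epithelial keratins KRT8, KRT18 and KRT7 were abundant in both lines, while KLK3, the gene of prostate-specific antigen, was at or near 0 in all 8 libraries. Among 10 leukocyte markers, 8 were listed, and their summed level in DU145 was 100.2 to 169 CPM, and it was 274 to 304 CPM in the PC3 controls and 591 to 618 CPM in PC3 with a circRNA. CD68 made up nearly all of it, and the listed markers PTPRC, LYZ and MS4A1 were at or near 0 throughout. Fibroblast and endothelial markers, 9 of 10 listed, summed to 4.26 to 5.52 CPM in the DU145 libraries, 85.9 and 86.2 CPM in the PC3 controls and 70.9 and 75.7 CPM in PC3 with a circRNA. In the PC3 controls KDR (47.0 and 46.5 CPM) and COL1A1 (28.0 and 27.6 CPM) made up most of the sum. LUM, VWF and CDH5 were at or near 0 there.

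In PC3, both circRNA libraries held far more PMAIP1 RNA and more MCL1 RNA than either control. PMAIP1 was 5.89-fold higher with circ0003553 and 5.80-fold higher with circ0004592, and MCL1 was 1.90-fold and 1.80-fold higher. BBC3 was 1.56-fold higher with circ0003553, a call that was lost in 4 of 10 alternatives. In these bulk libraries a change in the share of cells of a kind and a change in RNA per cell cannot be told apart. In DU145 neither PMAIP1 nor MCL1 passed the test with either circRNA, and the difference between the lines itself passed for both genes and both circRNAs. BAX, BAK1 and BCL2L1 passed in none of these comparisons.

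A gene was called when its edgeR p-value, adjusted over the 17877 genes tested, was under 0.05. Of the 10 members 9 were tested, because BCL2 lay below the filter of 1 CPM in 2 libraries. The fit held 6 groups (line by treatment) with 2 residual degrees of freedom, which come from the 2 pairs of controls. A lone circRNA library is taken to vary like the controls.

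**Figure D1:**
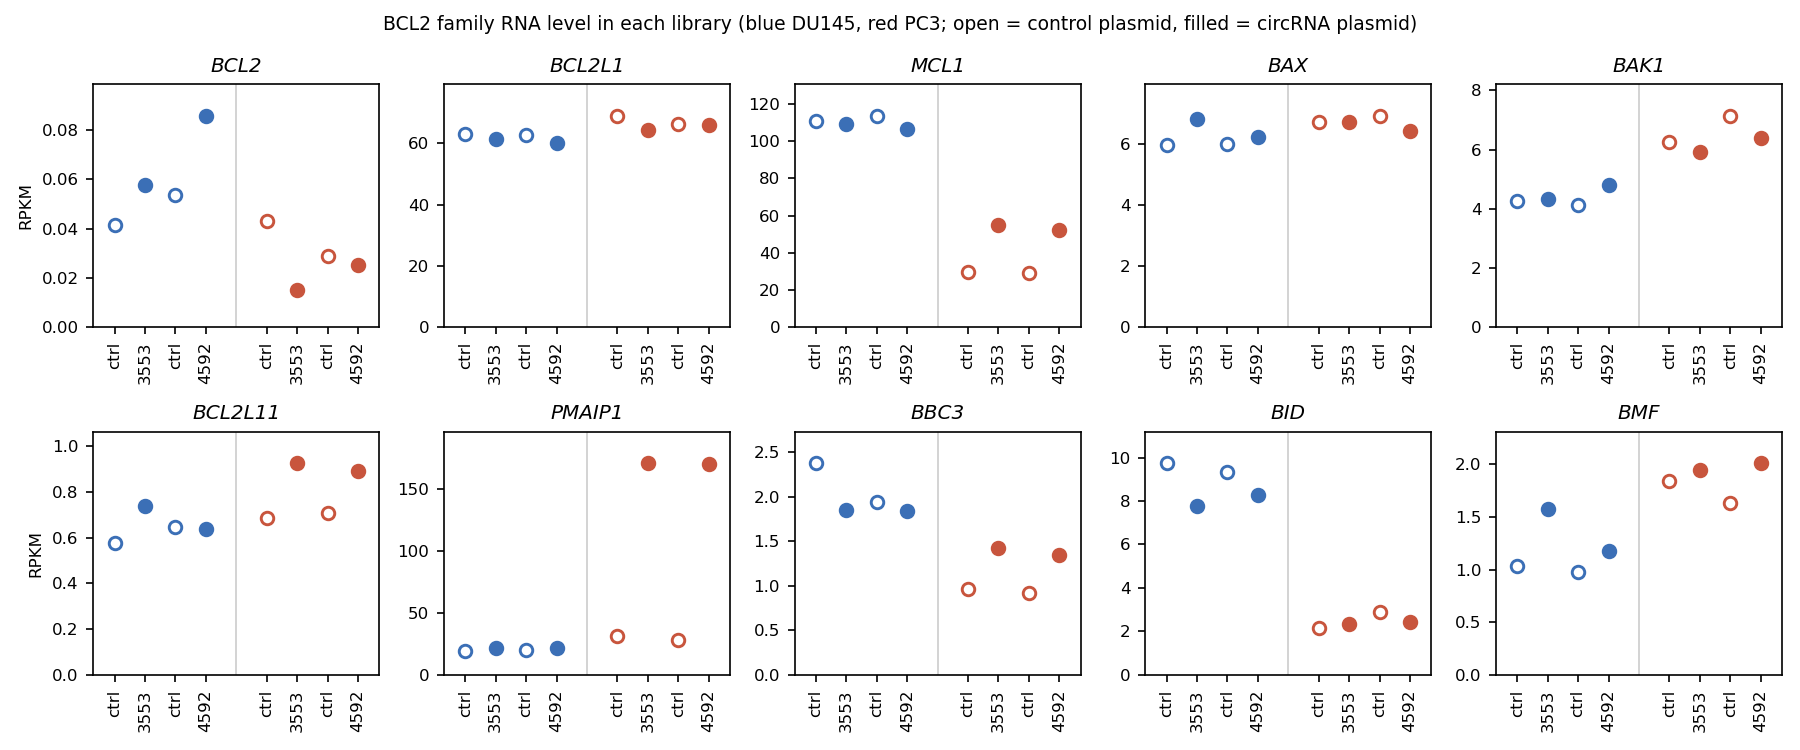
Each panel plots 1 member's deposited RPKM (counts scaled to exon length and library total, linear axis from 0) in the 8 libraries, with DU145 in blue, PC3 in red, control plasmids as open and circRNA plasmids as filled circles, and the circRNA names shortened to their last digits. PMAIP1 sits at 170.3 and 169.8 RPKM in PC3 with a circRNA and between 19.1 and 31.4 RPKM in the other 6 libraries.

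The guardians differed in level by orders of magnitude. Per length, MCL1 was the most abundant member in DU145 and BCL2L1 in the PC3 controls, while BCL2 was the least abundant member in all 8 libraries. MCL1 (chr1:150574551-150579738, minus strand, hg38 as are all gene positions here) is a short-lived guardian whose loss alone can kill some cells. Its control level was 112 ± 1.75 RPKM in DU145 and 29.6 ± 0.394 RPKM in PC3 (SD, n = 2 each). PC3 controls thus held less MCL1 RNA than DU145 controls, with a log2 difference of -1.93 ± 0.05 (SE, edgeR adjusted p = 2.38e-21).

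MCL1 had 476 and 489.8 CPM in the DU145 controls of the RCAN3 and STK3 arm, 459.9 CPM with circ0003553 and 478 CPM with circ0004592. In PC3 it had 134 and 128 CPM in the controls, 243 CPM with circ0003553 and 231 CPM with circ0004592. In DU145 circ0003553 lay just below both controls and circ0004592 between them, whereas both PC3 circRNA libraries lay well above both PC3 controls, though below every DU145 library. In PC3 the log2 change was 0.93 ± 0.06 with circ0003553 (edgeR adjusted p = 1.81e-12) and 0.85 ± 0.06 with circ0004592 (edgeR adjusted p = 1.20e-11). Ranked from the largest rise, MCL1 stood at place 800 and 883 of the 17877 genes. In DU145 the log2 changes were -0.07 ± 0.05 (edgeR adjusted p = 0.486) and -0.02 ± 0.05 (edgeR adjusted p = 0.884).

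BCL2L1 (chr20:31664452-31723989, minus strand) encodes BCL-XL, the guardian that many carcinoma lines rely on. It was level across all libraries, with 205.6 and 204.9 CPM in the DU145 controls, 197 CPM with circ0003553 and 205.04 CPM with circ0004592. The PC3 libraries had 234 and 220.2 CPM in the controls, 216 CPM with circ0003553 and 219.5 CPM with circ0004592. Per length, controls had 62.9 ± 0.419 RPKM in DU145 and 67.7 ± 1.72 RPKM in PC3 (SD, n = 2 each), a log2 difference of 0.10 ± 0.05 that missed the threshold (edgeR adjusted p = 0.0535). It passed without the filter (edgeR adjusted p = 0.0109), in limma (adjusted p = 0.0475) and without the PC3 control of the STK3 arm (edgeR adjusted p = 0.0259). The 4 changes with a circRNA lay between -0.06 and -0.01 on the log2 scale, with edgeR adjusted p from 0.575 to 0.976. A partner on the opposite strand, ABALON, shares 1424 bases, 43.0%, of the BCL2L1 exon length and had 5313 to 7796 counts a library against 6741 to 10176 for BCL2L1. The kit keeps strand, but the strand setting of the counting is not given in the sources used here, so the level of BCL2L1 may include reads of ABALON or lack shared ones.

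BCL2 (chr18:63123346-63320128, minus strand), the founding member of the family, had 22 and 24 counts in the DU145 controls, 34 with circ0003553 and 34 with circ0004592. The PC3 libraries had 18 and 12 counts in the controls, 6 with circ0003553 and 10 with circ0004592. Of counts from 1 to 20, 64.9% to 66.1% per library were even, so counting of 2 mates per fragment was assumed, though many counts were odd. On that assumption 3 read pairs or 6 counts were taken as the floor, and the PC3 library with circ0003553 was at it. Control levels were 0.0474 ± 0.00858 RPKM in DU145 and 0.0359 ± 0.0101 RPKM in PC3 (SD, n = 2 each). In a fit without the filter, the edgeR adjusted p of BCL2 was 0.350 to 0.983 over the 4 comparisons of a circRNA with controls and 0.601 between the lines. No difference in BCL2 was detectable at this depth.

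Both effectors were measured at a few RPKM and passed in no comparison with a circRNA. BAX (chr19:48954815-48961798, plus strand) forms pores in the outer membrane after moving there from the cytosol. It had 15.1 and 15.3 CPM in the DU145 controls, 17.0 CPM with circ0003553 and 16.5 CPM with circ0004592. In PC3 it had 17.8 and 17.9 CPM in the controls, 17.6 CPM with circ0003553 and 16.7 CPM with circ0004592. The control levels were 5.98 ± 0.0353 RPKM in DU145 and 6.81 ± 0.124 RPKM in PC3 (SD, n = 2 each), and the log2 difference of 0.18 ± 0.09 missed the threshold (edgeR adjusted p = 0.0541) but passed without the filter (edgeR adjusted p = 0.041) and in limma (adjusted p = 0.0251). BAX RNA was thus present in DU145 at nearly the level of PC3. With a circRNA, its 4 changes ran from -0.07 to 0.16 on the log2 scale (edgeR adjusted p from 0.355 to 0.955).

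BAK1 (chr6:33572547-33580293, minus strand) encodes the effector that resides in the outer membrane and is held there by MCL1 and BCL-XL. It had 9.25 and 9.01 CPM in the DU145 controls, 9.27 CPM with circ0003553 and 10.9 CPM with circ0004592. In PC3 it had 14.2 and 15.8 CPM in the controls, 13.3 CPM with circ0003553 and 14.2 CPM with circ0004592. All 4 PC3 libraries lay above all 4 DU145 libraries, and between controls BAK1 was 1.59-fold higher in PC3 (log2 0.67 ± 0.10, edgeR adjusted p = 2.38e-06). The changes with a circRNA ran from -0.14 to 0.25 (edgeR adjusted p from 0.245 to 0.945). Per length, controls had 4.19 ± 0.095 RPKM in DU145 and 6.69 ± 0.621 RPKM in PC3 (SD, n = 2 each).

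PMAIP1 (chr18:59899948-59904306, plus strand) was the most abundant BH3-only gene per length in every library. Its controls had 41.9 and 44.4 CPM in DU145, where circ0003553 gave 45.6 CPM and circ0004592 gave 48.9 CPM. In PC3 the controls had 72.0 and 62.1 CPM, against 385 CPM with circ0003553 and 381 CPM with circ0004592. The PC3 circRNA libraries stood apart from all others and differed from each other by less than the controls did. The log2 change in PC3 was 2.56 ± 0.07 with circ0003553 (edgeR adjusted p = 4.864e-20) and 2.54 ± 0.07 with circ0004592 (edgeR adjusted p = 5.858e-20). Ranked from the largest rise, PMAIP1 stood at place 203 and 214 of 17877.

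In DU145 both circRNA libraries were slightly above both controls in PMAIP1, by 0.08 ± 0.07 (edgeR adjusted p = 0.541) and 0.18 ± 0.08 (edgeR adjusted p = 0.156) on the log2 scale. Neither passed. Among controls, PMAIP1 was 1.51-fold higher in PC3 than in DU145 (log2 0.59 ± 0.06, edgeR adjusted p = 4.29e-09), with 29.6 ± 2.56 against 19.6 ± 0.744 RPKM (SD, n = 2 each). Against the control of its own arm, PMAIP1 in PC3 was 5.35-fold higher with circ0003553 (95% interval 5.04 to 5.69) and 6.14-fold higher with circ0004592 (5.76 to 6.55). These intervals are Clopper-Pearson intervals, with 2 counts taken as a read pair, and cover counting error only.

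The stretch of PMAIP1 before the start of the gene in the count tables is shown because PMAIP1 changed most of all members. It is the RefSeq promoter sequence of GRCh38.p14 at chr18:59899746-59899947, plus strand, 202 bases, with the capitals marking ACGTCA, the core of the cyclic AMP response element to which ATF and CREB factors can bind.
PMAIP1: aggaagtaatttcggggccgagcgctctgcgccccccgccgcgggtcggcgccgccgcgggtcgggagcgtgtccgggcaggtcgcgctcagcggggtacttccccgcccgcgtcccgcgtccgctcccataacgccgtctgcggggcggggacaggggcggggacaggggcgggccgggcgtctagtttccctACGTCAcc
The match starts 56 bases before the RefSeq start site, which lies 48 bases inside the gene as the count tables draw it. RefSeq windows of 250 bases before to 50 after the start site were on hand for 9 of the 10 members, 15 windows in all. On both strands, ACGTCA stood in 7.98% of all 35116 windows and in 1 of the 15. The full palindrome TGACGTCA, which contains ACGTCA, stood in 1.85% of all windows and in none of the members'.

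BBC3 (chr19:47220822-47232766, minus strand) encodes PUMA, a BH3-only protein that binds all guardians. It had 7.40 and 6.09 CPM in the DU145 controls, 5.66 CPM with circ0003553 and 5.99 CPM with circ0004592. In PC3 the controls had 3.117 and 2.91 CPM, against 4.58 CPM with circ0003553 and 4.30 CPM with circ0004592. Both PC3 circRNA libraries lay above both PC3 controls and below all DU145 libraries. Between controls BBC3 was lower in PC3 by 1.21 on the log2 scale, with a log2 difference of -1.21 ± 0.16 (edgeR adjusted p = 2.07e-07) and control levels of 2.15 ± 0.307 against 0.935 ± 0.0301 RPKM (SD, n = 2 each).

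With circ0003553 in PC3 BBC3 rose by 0.64 ± 0.21 on the log2 scale (edgeR adjusted p = 0.0214). With circ0004592 the change was 0.54 ± 0.21 and did not pass (edgeR adjusted p = 0.0591). A fit added after seeing the data, with both circRNA libraries of PC3 as 1 group against both controls, gave 0.59 ± 0.18 (edgeR adjusted p = 0.024). BBC3 rests on 103 to 152 counts a library in PC3, and the circ0003553 call was lost without the PC3 control of the STK3 arm (edgeR adjusted p = 0.054), with the arm as a block (edgeR adjusted p = 0.0845), in DESeq2 (adjusted p = 0.253) and in limma (adjusted p = 0.0761). The arm as a block brought a call for circ0004592 (edgeR adjusted p = 0.0384). In DU145 the changes were -0.25 ± 0.17 and -0.18 ± 0.18 (edgeR adjusted p = 0.393 and 0.604).

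In the promoter windows, GAAANNGAA, a short form of the element bound by interferon regulatory and related factors, was searched on both strands because IRF1 and IRF7 RNA rose in PC3. It stood in 8.11% of all windows and in 1 of the 15 member windows, which is near that share. That window was the one of BBC3, with the matches on the gene's strand. Binding of a factor there was not tested. The stretch is shown with the 3 overlapping matches in capitals, from RefSeq GRCh38.p14 at chr19:47232618-47232646, minus strand.
BBC3: atgaGAAACTGAAAAAGAAACGGAAtgga
The matches start between positions 26 and 38 counted from the RefSeq start site as 1, so they lie in transcribed sequence. PMAIP1 had no match in its window. TTCNNNGAA, the spaced element of STAT factors, stood in 7.66% of all windows and in none of the members'. CACGTG, the E-box of MYC and related factors, stood in 7.26% of all windows and in 4 of the 15 windows, those of BAX, BBC3 and BID, where both windows of BID hold the same site.

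BCL2L11 (chr2:111119378-111168447, plus strand) encodes BIM, which both binds guardians and activates effectors. It had 3.76 and 4.25 CPM in the DU145 controls, 4.75 CPM with circ0003553 and 4.35 CPM with circ0004592. In PC3 it had 4.68 and 4.71 CPM in the controls, 6.23 CPM with circ0003553 and 5.98 CPM with circ0004592. In PC3 the changes of 0.44 ± 0.18 and 0.38 ± 0.19 on the log2 scale missed the threshold (edgeR adjusted p = 0.0761 and 0.149). With both circRNA libraries as 1 group the change was 0.41 ± 0.16 (edgeR adjusted p = 0.0801). DU145 changes were 0.25 ± 0.18 and 0.12 ± 0.20 (edgeR adjusted p = 0.417 and 0.775). Between the control lines BCL2L11 did not pass (log2 0.19 ± 0.16, edgeR adjusted p = 0.266), with 0.610 ± 0.0503 RPKM in DU145 and 0.696 ± 0.0159 RPKM in PC3 (SD, n = 2 each).

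BID (chr22:17734138-17774770, minus strand) is cut by caspase-8 and so carries a death receptor signal to the mitochondrion. It had 42.5 and 41.0 CPM in the DU145 controls, 33.3 CPM with circ0003553 and 37.9 CPM with circ0004592. In PC3 it had 9.75 and 12.8 CPM in the controls, 10.6 CPM with circ0003553 and 10.8 CPM with circ0004592. Every PC3 library was far below every DU145 library, and among controls the log2 difference was -1.93 ± 0.10 (edgeR adjusted p = 3.25e-15), or 9.54 ± 0.271 RPKM in DU145 against 2.51 ± 0.523 RPKM in PC3 (SD, n = 2 each). The PC3 circRNA libraries lay between the PC3 controls (log2 -0.06 ± 0.14 and -0.04 ± 0.14, edgeR adjusted p = 0.787 and 0.897).

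In DU145 BID fell by 0.33 with circ0003553 on the log2 scale (SE 0.10, edgeR adjusted p = 0.0429), and with circ0004592 the change was -0.15 ± 0.11 (edgeR adjusted p = 0.427). The circ0003553 call was lost without the DU145 control of the RCAN3 arm (edgeR adjusted p = 0.245), without that of the STK3 arm (edgeR adjusted p = 0.167), with the arm as a block (edgeR adjusted p = 0.0947), with both circRNA libraries as 1 group (edgeR adjusted p = 0.397), and in DESeq2 and limma, with a range of 0.00265 to 0.439 over all alternatives.

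BMF (chr15:40087890-40108892, minus strand) is held at the cytoskeleton and released under stress. It had 5.52 and 5.23 CPM in the DU145 controls, 8.27 CPM with circ0003553 and 6.57 CPM with circ0004592. In PC3 it had 10.3 and 8.89 CPM in the controls, 10.7 CPM with circ0003553 and 11.0 CPM with circ0004592. Both circRNA libraries lay above both controls in each line, though in PC3 circ0003553 was close to the higher control. BMF rose in DU145 with circ0003553 by 0.62 ± 0.14 on the log2 scale (edgeR adjusted p = 0.00645). The other 3 changes, 0.28 ± 0.16 with circ0004592 in DU145 and 0.20 ± 0.14 and 0.23 ± 0.14 in PC3, did not pass (edgeR adjusted p = 0.289, 0.325 and 0.272).

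The DU145 call of BMF was lost without the control of the RCAN3 arm (edgeR adjusted p = 0.052) and without that of the STK3 arm (edgeR adjusted p = 0.0737), in limma (adjusted p = 0.144) and with both circRNA libraries as 1 group (edgeR adjusted p = 0.159), and DESeq2 gave no adjusted p. Among controls BMF was 1.72-fold higher in PC3 (log2 0.79 ± 0.12, edgeR adjusted p = 3.23e-06), with 1.74 ± 0.148 against 1.002 ± 0.0417 RPKM (SD, n = 2 each). A clone-named gene on the opposite strand, RP11-521C20.3, shares 461 bases, 8.46%, of the BMF exon length, with 8 to 58 counts a library.

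Counted together, 3 of the 9 tested members were higher in PC3 than in DU145 controls (BMF, BAK1, PMAIP1) and 3 were lower (MCL1, BID, BBC3), where 41.6% of all tested genes were higher and 41.1% lower. With circ0003553 in PC3, 3 members were higher (PMAIP1, MCL1, BBC3) and 0 lower, against 14.3% of all genes higher and 14.5% lower. With circ0004592 in PC3, 2 were higher (PMAIP1, MCL1) and 0 lower, against 12.3% higher and 13.5% lower. The median log2 change of the 9 tested members was 0.20 and 0.23 in PC3, where that of all tested genes was -0.03 with each circRNA.

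In DU145, circ0003553 had 1 member higher (BMF) and 1 lower (BID), against 4.62% and 6.27% of all genes. For circ0004592 in DU145, 0 members were called, against 5.93% of genes higher and 4.51% lower. At an unadjusted p under 0.05 edgeR had 1 member there (PMAIP1) and 4309 of all 17877 genes, DESeq2 had 0 members and 1995 genes, and limma had 0 members and 3877 genes. The fit that pooled the circRNA libraries of a line called 0 of 9 members in DU145, where 0.543% of genes were higher and 0.464% lower and where BID and BMF were among 2212 of 17877 genes with an unadjusted edgeR p under 0.05. In PC3 it called PMAIP1, MCL1 and BBC3, where 10.2% of genes were higher and 10.5% lower. The comparisons of both circRNAs with a line share its controls.

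**Figure D2:**
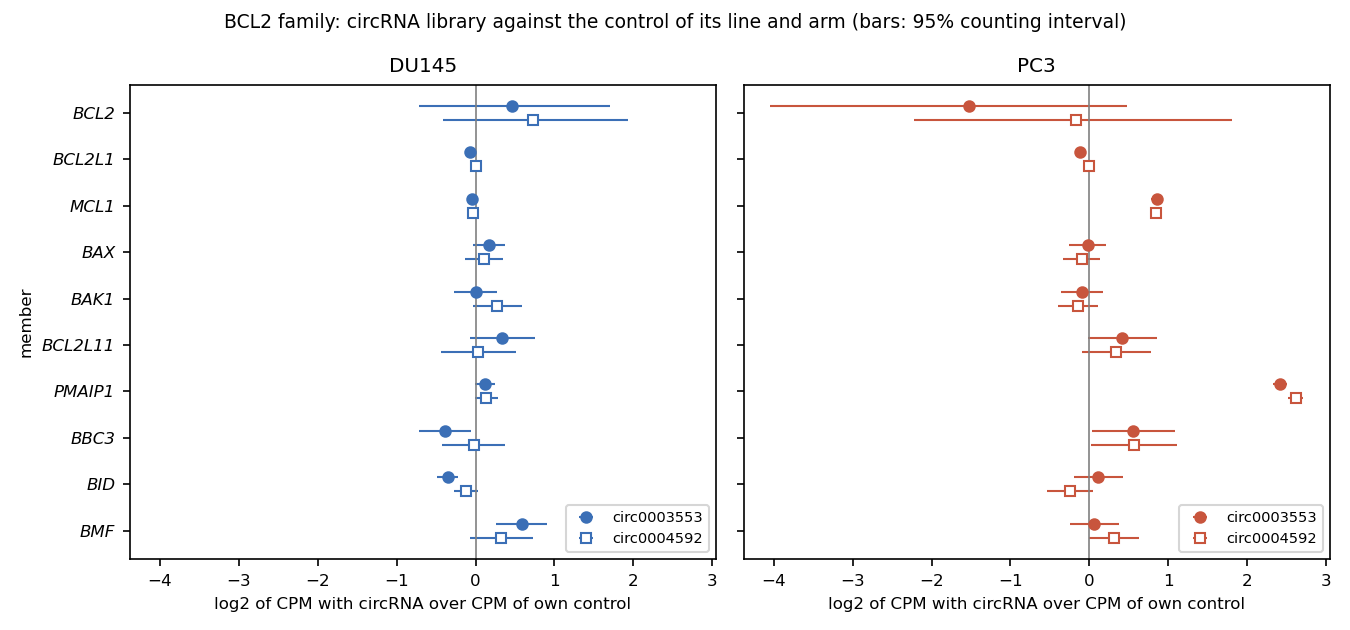
For each member the plot gives log2 of the ratio of CPM with a circRNA to CPM in the control of the same line and arm, with circles for circ0003553, squares for circ0004592 and bars for the 95% counting interval. PMAIP1 (5.35-fold and 6.14-fold) and MCL1 (1.81-fold and 1.80-fold) lie far right in PC3 and near 0 in DU145, and the intervals of BCL2 are wide.

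The line dependence was tested as the change in PC3 minus the change in DU145. PMAIP1 had a difference of 2.47 ± 0.10 for circ0003553 (edgeR adjusted p = 2.61e-15) and 2.36 ± 0.10 for circ0004592 (edgeR adjusted p = 1.01e-14). MCL1 had 0.99 ± 0.08 (edgeR adjusted p = 7.60e-10) and 0.87 ± 0.08 (edgeR adjusted p = 1.06e-08). BBC3 had 0.89 ± 0.27 for circ0003553 (edgeR adjusted p = 0.0177) and 0.72 ± 0.28 for circ0004592, which missed the threshold (edgeR adjusted p = 0.0692).

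The BBC3 difference for circ0003553 was lost without the DU145 control of the RCAN3 arm (edgeR adjusted p = 0.0914), in DESeq2 (adjusted p = 0.245) and in limma (adjusted p = 0.101). In all, 3 of 9 members were called higher for circ0003553, against 12.1% of all genes higher and 10.5% lower, and 2 of 9 for circ0004592, against 9.79% higher and 10.5% lower. A fit that took each circRNA's effect as equal in both lines called 0% of genes and 0 members for each circRNA with edgeR, and at an unadjusted p under 0.05 it had 519 and 542 genes and 0 members. DESeq2 called 11 and 13 genes there and 0 members.

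Per length, the make-up of the family differed between the lines and, in PC3, between plasmids. BH3-only genes held 15.1% to 15.7% of the family's summed RPKM in all 4 DU145 libraries. In PC3 they held 24.9% and 23.6% in the controls and 57.3% with either circRNA. Guardians held 79.0% to 80.3% in DU145, 66.4% and 66.6% in the PC3 controls and 38.6% and 38.5% with circ0003553 and circ0004592. The summed RPKM of the guardians nonetheless was higher with a circRNA in PC3, at 119 and 118.5 RPKM against 98.8 and 95.8 RPKM. That of the BH3-only genes went from 37.0 and 33.9 to 177 and 176 RPKM, of which PMAIP1 gave 170.3 and 169.8 RPKM.

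The ratio of PMAIP1 to MCL1 in RPKM was 0.172 and 0.177 in the DU145 controls and 0.194 and 0.200 with circ0003553 and circ0004592. In PC3 it was 1.05 and 0.949 in the controls, 3.10 with circ0003553 and 3.23 with circ0004592. Since both genes rose, the ratio moved less than PMAIP1 itself. MCL1 stood at 1.76 to 1.81 times BCL2L1 in DU145, at 0.433 and 0.441 times in the PC3 controls and at 0.852 and 0.798 times with the circRNAs. BAX to BAK1 ran from 0.968 to 1.57 over the 8 libraries. These ratios compare RNA and say nothing of protein, and they carry no test.

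**Figure D3:**
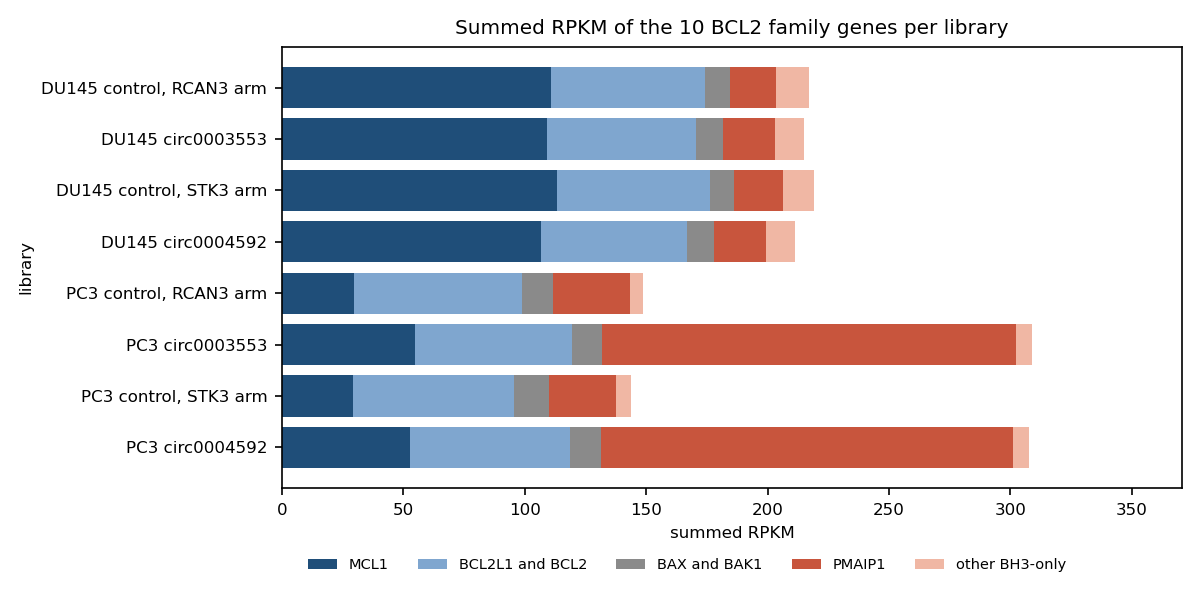
Bars stack the RPKM of the 10 members in each library, in 5 shades for MCL1, BCL2L1 with BCL2, BAX with BAK1, PMAIP1, and the other BH3-only genes, with the axis from 0. The 2 PC3 circRNA libraries have the longest bars because of PMAIP1 at 170.3 and 169.8 RPKM, and the PC3 controls the shortest.

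The genes nearest to a called member in their 4 changes against own controls were named, among 12295 tested genes with a mean of at least 5 CPM, by Euclidean distance on the log2 scale. For PMAIP1 these were CSF1 (distance 0.134), a macrophage growth factor, APOL2 (0.207) and EIF2AK2 (0.246), the kinase PKR that senses double-stranded RNA. EIF2AK2 went from 70.3 and 68.2 CPM in the PC3 controls to 393 and 364 CPM with circ0003553 and circ0004592. For MCL1 they were NOD1 (0.103), C1RL-AS1 (0.108) and TAF4B (0.112). Nearest to BBC3 were MYH14 (0.076), ADPRHL2 (0.092) and ZFP3 (0.130). BID had CTD-2024P10.1 (0.0723), TOE1 (0.0756) and JRK (0.0781), and BMF had SMAD4 (0.107), ZFP36 (0.204) and TNRC6B (0.204).

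Other genes of the pathway were read from lists of related genes, chosen with earlier results of these data known. Their counts stand against the shares of all genes given above, which were 14.3% higher and 14.5% lower with circ0003553 and 12.3% and 13.5% with circ0004592 in PC3. In DU145 these shares were 4.62% higher and 6.27% lower with circ0003553 and 5.93% and 4.51% with circ0004592, so that 0 or 1 call in a list is near the background. Of 14 further BCL2 family genes 10 were tested, and in PC3 1 rose and 4 fell with circ0003553 and 2 rose and 4 fell with circ0004592. BCL2L13, an outer membrane protein of mitophagy, rose by 1.08 and 1.002 on the log2 scale. BOK, an effector-like member, changed by -0.51 and -0.43 and the guardian BCL2A1 by -0.42 and -0.47, all called. The mitophagy receptor BNIP3L was called at -0.22 and -0.27, and MTCH2 at -0.37 with circ0003553 alone. In DU145, BAD fell with circ0003553 (-0.35), and with circ0004592 BCL2A1 rose (0.57) and BNIP3L fell (-0.30).

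Of 16 genes of the apoptosome, the caspases and the inhibitors of apoptosis, 3 rose and 3 fell with circ0003553 in PC3, and 2 rose and 3 fell with circ0004592. The inhibitor BIRC3 rose by 1.45 and 1.36 on the log2 scale and the inhibitor BIRC2 by 0.67 and 0.54, while XIAP rose by 0.23 with circ0003553. BIRC5 (survivin) changed by -0.33 and -0.25. CYCS, the gene of the cytochrome c that is set free once the outer membrane opens, changed by -0.18 and -0.35, both called. The median log2 change over the 16 genes was -0.13 and -0.11. In DU145 BIRC6 rose (0.26) and DIABLO fell (-0.29) with circ0003553, and 0 of 16 were called with circ0004592.

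The 11 genes of the death receptor route into BID had 7 rises and 0 falls with each circRNA in PC3, with a median log2 change of 0.78 and 0.75. TNFSF10, the ligand TRAIL, went from 0.808 and 1.18 CPM in the controls to 56.4 and 55.5 CPM with circ0003553 and circ0004592, and the initiator gene CASP8 from 58.5 and 58.6 to 119 and 123 CPM. CASP10 rose by 2.08 and 1.94 and the receptor FAS by 1.47 and 1.30 on the log2 scale. The 7 rises also held CFLAR (0.83 and 0.78), an inhibitor of caspase-8 activation, so they were not all of activating genes. The TRAIL receptor genes TNFRSF10A and TNFRSF10B were not called in PC3. BID itself, the substrate of caspase-8, did not pass in PC3. In DU145, 0 of 11 were called with circ0003553 and CFLAR alone, which fell by 0.24, with circ0004592.

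Of 18 genes linked to stress signalling, mostly transcription factors, 6 rose and 4 fell in PC3 with each circRNA. IRF7 rose by 3.19 and 3.20 and IRF1 by 2.00 and 1.88 on the log2 scale, and ATF3 rose by 1.13 and 1.01. TRIB3 changed by -0.89 and -0.55 and CHAC1 by -0.73 and -0.69, all called, and neither encodes a transcription factor. ATF3 was also called higher in DU145 (0.39 and 0.67), as were FOXO3 (0.61 and 0.63) and JUN (0.39 and 0.69). In DU145 IRF1 fell by 0.33 with circ0003553, and PPP1R15A rose by 0.31 with circ0004592.

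Among 12 genes of mitochondrial channels and pores, import, fission and fusion, PC3 had 2 rises and 2 falls with circ0003553. With circ0004592 it had 1 rise and 4 falls. TOMM22, part of the import pore, changed by -0.32 with each circRNA. VDAC1 (-0.26), MFN2 (0.21) and PPIF (0.19) followed with circ0003553 and VDAC3 (-0.30), PPIF (0.27) and OPA1 (-0.23) with circ0004592. VDAC1 was called lower with circ0004592 as well (-0.21). In DU145 the fission receptor MFF was lower with each circRNA (-0.25 and -0.47), the 1 call of this list with circ0003553, while circ0004592 had 3 rises and 3 falls. Among the latter calls were OPA1 (-0.27), FIS1 (0.25) and DNM1L (-0.24), which shape and divide mitochondria.

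Among 14 genes that control the turnover or release of MCL1 and BH3-only proteins, 3 rose and 2 fell in PC3 with circ0003553 and 1 rose and 2 fell with circ0004592. GSK3B, a kinase that marks MCL1 for breakdown, changed by -0.36 and -0.42. USP9X, which removes ubiquitin from MCL1, rose by 0.20 with circ0003553, where DYNLL1 changed by -0.20, and USP13 changed by -0.45 with circ0004592. UBR4 rose by 0.41 and 0.29 in PC3 and by 0.41 in DU145 with circ0004592, where HUWE1, a ubiquitin ligase of MCL1, rose by 0.28, DYNLL2, the light chain that holds BMF, rose by 0.28 and MARCH5 changed by -0.34. This list had 0 of 14 calls in DU145 with circ0003553.

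**Figure D4:**
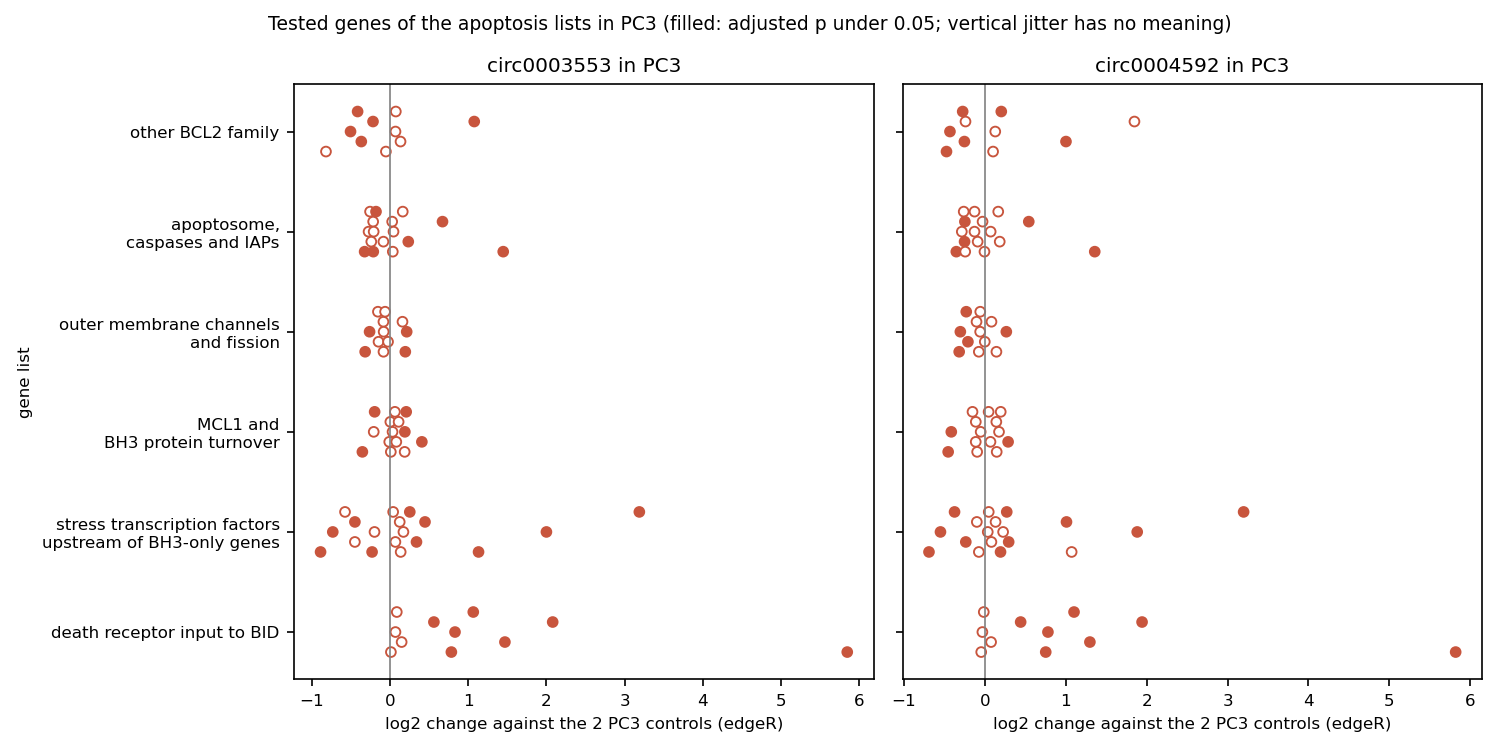
Each point is a tested gene of 1 of the 6 lists, placed by its log2 change (edgeR) in PC3 with circ0003553 (left) or circ0004592 (right) against the 2 PC3 controls, filled where the adjusted p was under 0.05. TNFSF10 lies farthest right at 5.85 and 5.82, and the called genes of the death receptor list all lie right of 0.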

How the data were processed

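The deposited tables hold raw read counts and RPKM per gene, a pair of tables per arm, and the authors' RPKM equalled the count divided by gene length and library total. Per the submitters' processing notes, Trimmomatic 0.36, featureCounts of Subread 1.5.1, edgeR 3.12.1 and hg38 were used. The aligner, annotation release, strand setting and use of molecular identifiers are not given in the sources used here. Genes listed in 1 table (5511, at most 14 counts) were given 0 in the other. Each group was taken from the sample titles and treatments, and columns were matched by title. The description labels of 4 of the 8 libraries name the RPKM table of the other arm.

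Here, the 17877 genes with at least 1 CPM in at least 2 libraries were tested with edgeR 4.0.16 (R 4.3.3, TMM, quasi-likelihood test, Benjamini-Hochberg adjustment). An SE is the absolute log2 change over the square root of F. Alternatives were DESeq2 1.42.0, its size factors, limma 3.58.1 on log2(RPKM + 0.1), no filter, the arm as a block and libraries left out. The method was also run on simulated counts with known folds put in. There all libraries otherwise shared the same mean and spread per gene. That run therefore cannot show whether a lone circRNA library varies like the controls. Folds against own controls used TMM-scaled CPM and carry no test. Total counts ran from 33444940 to 49926342, and 6 counts equal 0.120 to 0.179 CPM. Members, gene lists and motifs were chosen with earlier results of these data known. All members are named, from each list up to 4 called genes per comparison by absolute log2 change, and the 3 genes nearest to each called member. In PC3, CFLAR, TNFRSF10A and TNFRSF10B are named in addition. A list gene named for 1 circRNA is also given with the other circRNA of that line where it was called there. Some genes and 1 gene list are not reported here.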

Additional observations from a re-analysis of the deposited data

Results flagged for a closer look

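The change with a circRNA differed between PC3 and DU145, by the test of that difference, for 3 members. PMAIP1 differed by 2.47 on the log2 scale with circ0003553 and 2.36 with circ0004592, and it was higher in the circRNA library than in both controls in each line. MCL1 differed by 0.99 and 0.87, with both PC3 circRNA libraries above both PC3 controls. BBC3 differed by 0.89 with circ0003553, where it lay above both controls in PC3 and below both in DU145, and this call was lost in 3 of 9 alternatives. Each circRNA had 1 library per line.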

How the results depend on the processing

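PMAIP1 and MCL1 kept their calls in PC3, and in the test of the line difference, under every alternative run. In PC3 their log2 changes ranged from 2.44 to 2.65 and from 0.82 to 0.95.

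With circ0003553 in DU145, DESeq2 called 820 genes and 0 members, limma 0 genes (3448 at an unadjusted p under 0.05) and 0 members, the arm as a block 1 member, and both circRNAs as 1 group 180 genes and 0 members. Without a control library it had 782 to 2676 genes, and 0 members without a DU145 control but 2 without a PC3 control. The arm as a block changed the member calls of BBC3 in PC3 and of BID in DU145 given above and no other. With circ0004592 in DU145, DESeq2 called 835 genes, limma 0 (3877 at an unadjusted p under 0.05) and both circRNAs as 1 group 180, and 533 to 2531 were called without a control library. In PC3 DESeq2 called 2565 and 2266 genes and limma 3305 and 2641 for circ0003553 and circ0004592. For the line difference DESeq2 called 2016 and 1807 and limma 1961 and 1619. With an effect equal in both lines, DESeq2 called 11 and 13 genes and the fit without a filter 38 and 36. There, leaving out a library gave 0 to 3 genes for circ0003553 and 0 to 4 for circ0004592. The causes were not tested.

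Changes of sign were seen in values that had not passed. BCL2L1 with circ0004592 was 0.012 in DU145 with the arm as a block and -0.055 to 0.011 in PC3 without a control. With circ0003553 in PC3, BAX was -0.021 without a filter, -0.020 in limma and -0.028 with both circRNAs as 1 group, and BID was 0.0063 with the arm as a block and -0.25 to 0.16 without a control. With circ0004592 in PC3 and a control left out, BAK1 ranged from -0.13 to 0.045 and BID from -0.23 to 0.19. MCL1 over both lines ranged from -0.051 to 0.91 and from -0.043 to 0.88 when a library was left out.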
